A study of Mus musculus with 5 samples.

Results

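The primitive endoderm regulators and receptors are 10 genes: the transcription factors Gata4, Gata6, Sox17, Sox7, Foxa2 and Hnf4a, the coregulator Cited1, the receptors Pdgfra and Cubn, and the endocytic adaptor Dab2. They were chosen by name, with earlier results of these data known. All probe sets listed with 1 of these symbols were taken, 24 probe sets of 45037 that are not array controls. RNA was measured on 5 Affymetrix arrays, 1 per group. J1 mouse embryonic stem cells, grown on mouse embryonic fibroblast feeders, received control siRNA or Tet1 siRNA and were taken 4 days after transfection. E14 mouse embryonic stem cells, grown without feeders, were infected with lentivirus for a scramble shRNA, Tet1 shRNA3387 or Tet1 shRNA2863 and taken after 4 days in puromycin. The line, the feeders and siRNA against hairpin change together from J1 to E14 and cannot be told apart; their combination is called the system. No group has a replicate, so a difference between arrays has no error of its own.

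The primitive endoderm is the layer of the blastocyst that lines the cavity and later gives the visceral and parietal endoderm of the yolk sac. In the inner cell mass, FGF signalling through Grb2 favours Gata6, while Nanog favours the epiblast; Pdgfra, Sox17, Gata4 and Sox7 follow Gata6, and Dab2 and Cubn serve the uptake and polarity of the formed epithelium. Embryonic stem cells correspond to the epiblast, and most of these genes are known to be low in them. Tet1 oxidizes 5-methylcytosine at CpG sites and is abundant in these cells.

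Tet1 was lower on the 3 arrays labelled as depleted. In J1 its log2 value was 10.85 in the control and 8.31 after Tet1 siRNA, and in E14 10.95 with the scramble hairpin, 9.24 with shRNA3387 and 10.06 with shRNA2863. The stem cell markers were high everywhere: of the 8 checked, Nanog had the lowest value, 9.71 on the J1 Tet1 siRNA array. On the fibroblast list, 25 of 30 genes lay above the filter level on at least 1 array, where 13619 of all 18193 genes did. The mean log2 value of these 25 was 5.46 and 5.45 on the J1 arrays and between 5.19 and 5.37 on the E14 arrays. The filter level is the 40th percentile of all probe sets that are not array controls, 3.03 to 3.12 on the 5 arrays; probe sets under it are hard to tell from background.

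Most of the primitive endoderm genes were near background in both systems. The brightest probe sets of Dab2 and Hnf4a lay clear of the filter level on every array, and that of Cited1 did so in J1. Of the 24 probe sets, 13 never reached the filter level and 7 exceeded it on all 5 arrays. By their brightest probe set, 7 of the 10 genes were kept for the tests: Gata4, Gata6, Sox17, Sox7, Hnf4a, Dab2 and Cited1. Of all 18193 genes 13619 were kept, so the count kept does not set these genes apart. Foxa2, Pdgfra and Cubn were not kept. Cited1 was above the filter level on 3 arrays, both J1 arrays and shRNA2863, and so was kept through the arrays where it is high. Tet1 siRNA in J1 was accompanied by a 4.35-fold higher Cited1, and none of the other 6 kept genes differed by 2-fold on any depletion array. In whole cultures, fewer cells of a type and less RNA per cell cannot be told apart.

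**Figure D1:**
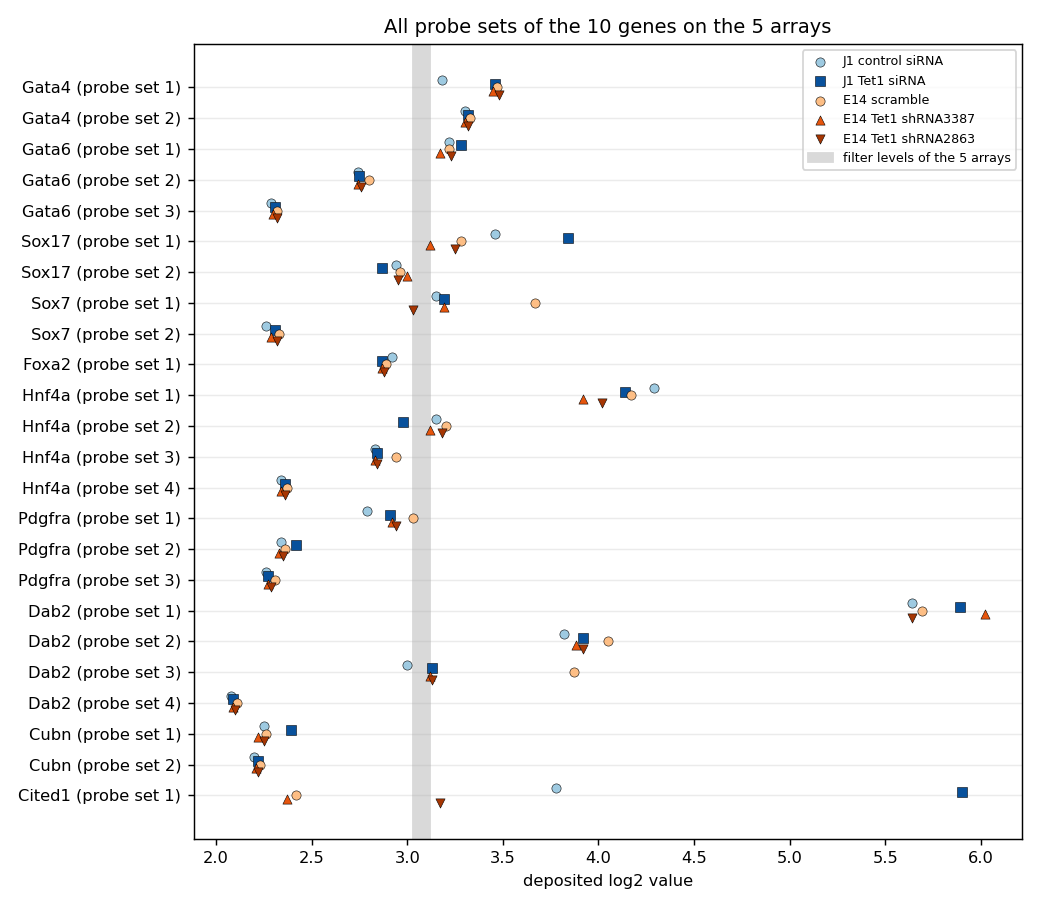
Deposited log2 values (horizontal axis) of the 24 probe sets of the 10 genes, numbered from the brightest within a gene; each point is 1 array, and the grey band spans the filter levels of 3.03 to 3.12. Most points lie below 3.5; the first Dab2 probe set lies between 5.64 and 6.02, and Cited1 spreads from 2.37 to 5.90.

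The GATA factors, which open the endoderm program, showed little signal. Gata4 had 2 probe sets. In J1 the brighter read 3.18 in the control and 3.46 after Tet1 siRNA, and it read 3.47, 3.45 and 3.48 in E14 with scramble, shRNA3387 and shRNA2863. The J1 control array was thus the low array, and the other 4 lay within 0.03 of each other. The other Gata4 probe set ranged over only 0.03, from 3.30 to 3.33, so that the J1 difference of 0.28 in the first had a counterpart of 0.02 in the second. Gata6, the earliest of these factors in the inner cell mass, read 3.22 and 3.28 in J1 and 3.22, 3.17 and 3.23 in E14. Its other probe sets lay at 2.74 to 2.80 and 2.29 to 2.32, under the filter level on every array.

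Sox17 and Sox7 are HMG-box factors of the same subgroup that act after Gata6. In J1 the brighter Sox17 probe set read 3.46 in the control and 3.84 after Tet1 siRNA, a difference of 0.38. In E14 it read 3.28 with scramble, 3.12 with shRNA3387 and 3.25 with shRNA2863. Both J1 arrays lay above all 3 E14 arrays in this probe set. The second Sox17 probe set did not share the pattern: it stayed under the filter level, between 2.87 and 3.0, and differed by -0.07 in J1.

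Sox7 read 3.15 and 3.19 in J1, and 3.67, 3.19 and 3.03 in E14 with scramble, shRNA3387 and shRNA2863. Only the scramble array was high, and the other 4 lay between 3.03 and 3.19. The differences with the hairpins, -0.48 and -0.64, therefore rest on that shared control array, and its second probe set, at 2.26 to 2.33, gave -0.04 and -0.01. The fit of 4 group means put the E14 effect on Sox7 at -0.56 ± 0.10 (SE), with an adjusted p of 0.398 in limma. The scramble array exceeded every other array by at least 0.45 at 313 of 13619 kept genes, and the J1 control array did so at 349.

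Foxa2 and Hnf4a are liver-type regulators that act in visceral endoderm. Foxa2 had a single probe set, which stayed under the filter level throughout, between 2.87 and 2.92. The brightest of 4 Hnf4a probe sets read 4.29 and 4.14 in J1, and 4.17, 3.92 and 4.02 in E14. Hnf4a was the only kept gene here that was lower in all 3 depletions, by -0.15, -0.25 and -0.15. These are small against all kept genes, the middle 95% of which ran from -0.80 to 0.62 in J1. The pooled Tet1 difference of Hnf4a was -0.18 ± 0.07 (SE; 3 depleted and 2 control arrays), with an adjusted p of 0.718 in limma. The second probe set differed by -0.17, -0.08 and -0.02, and the other two, under the filter level, by 0.01 and 0.02 in J1. With shRNA3387 and shRNA2863 these differed by -0.11 and -0.10, and by -0.03 and -0.01.

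Pdgfra, the receptor by which primitive endoderm cells are often recognised, is also a fibroblast gene. None of its 3 probe sets reached the filter level on any array, including the J1 cultures with feeders. The brightest read 2.79 and 2.91 in J1 and 3.03, 2.92 and 2.94 in E14, and the others stayed between 2.26 and 2.42. Its ligand genes lay above the filter level on all arrays. Pdgfa read 7.76 and 7.69 in J1 and 7.69, 7.65 and 8.01 in E14. Pdgfc read 8.29 and 7.66 in J1 and 6.99, 6.73 and 7.20 in E14. The related receptor Pdgfrb lay between 3.59 and 3.64.

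Cubn encodes cubilin, the large scavenger receptor of visceral endoderm. Its 2 probe sets read 2.2 to 2.39, always under the filter level, and the highest value, 2.39, was that of J1 Tet1 siRNA. Amn, which anchors cubilin at the membrane, read 5.64 and 5.55 in J1 and 5.66, 6.02 and 5.65 in E14. Lrp2, the megalin receptor that works with cubilin, read 7.06 and 7.19 in J1 and 6.90, 7.63 and 7.07 in E14. Both partners were highest with shRNA3387, by 0.36 for Amn and 0.73 for Lrp2 against scramble; the other hairpin gave -0.01 and 0.17.

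Dab2, the clathrin adaptor that links such receptors to endocytosis, lay above the filter level on every array by its brightest probe set, and its probe sets disagreed. The brightest read 5.64 and 5.89 in J1 and 5.69, 6.02 and 5.64 in E14. The differences were 0.25, 0.33 and -0.05 for J1 siRNA, shRNA3387 and shRNA2863. The second probe set differed by 0.10, -0.17 and -0.13. The third read 3.0 and 3.13 in J1 and 3.87, 3.12 and 3.13 in E14, so again only the scramble array was high, and its differences were 0.13, -0.75 and -0.74. The last ranged over only 0.03, near 2.1 on all arrays. In J1 all 4 probe sets were higher with Tet1 siRNA, by 0.01 to 0.25. In E14 the direction depended on the probe set: the mean hairpin difference was 0.14 for the brightest. It was -0.45 when each array was given the median level of its 4 probe sets, where the high scramble value of the third enters. The pooled Tet1 difference by the brightest was 0.19 ± 0.16 (SE; limma adjusted p = 0.77).

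Cited1 is a transcriptional coregulator without a DNA-binding domain of its own, known from trophoblast and early mesoderm. In J1 its only probe set read 3.78 in the control and 5.90 after Tet1 siRNA. In E14 it read 2.42 with scramble, 2.37 with shRNA3387 and 3.17 with shRNA2863, where the first pair lies under the filter level. Both J1 arrays were above all 3 E14 arrays, and Tet1 siRNA was the highest by 2.12. Among 13619 kept genes this was the second largest difference upward in J1 (rank 2), while 0.47% of kept genes were at least 2-fold higher there. Its rank was 8438 with shRNA3387, a difference of -0.05, and 229 with shRNA2863, a difference of 0.75 from a scramble value under the filter level. All 3 E14 values lay under or close to the filter level, so the differences and ranks in E14 give no firm size. With single arrays and 1 probe set, these values have no replicate check.

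In the limma fit over both systems the Tet1 term of Cited1 was 1.11 ± 0.53 (SE; 3 depleted and 2 control arrays, adjusted p = 0.718). It was 2.12 without the scramble array, which is the J1 difference, and 0.35 without either J1 array, which is the mean hairpin difference. The E14 effect alone was 0.35 ± 0.47 (SE; limma adjusted p = 0.848), and the difference of effects, E14 minus J1, was -1.77 ± 0.72 (SE; limma adjusted p = 0.448). The lowest adjusted p of any gene for this difference was 0.332, so the test called no gene and does not settle whether the J1 and E14 effects differ.

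The genes nearest to Cited1 over the 5 arrays, by Euclidean distance between values centred on each gene's mean, were the NADPH oxidase Nox4 (distance 0.67), the placental gene Plac1 (0.77) and the cullin Cul5 (0.91). Nox4 differed by 2.11 in J1 and by -0.17 and 0.11 with the hairpins. Plac1 differed by 2.70, -0.39 and 0.50, and Cul5 by 1.11, 0.17 and 0.20. Of all kept genes, 4 lay within a distance of 1 from Cited1.

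**Figure D2:**
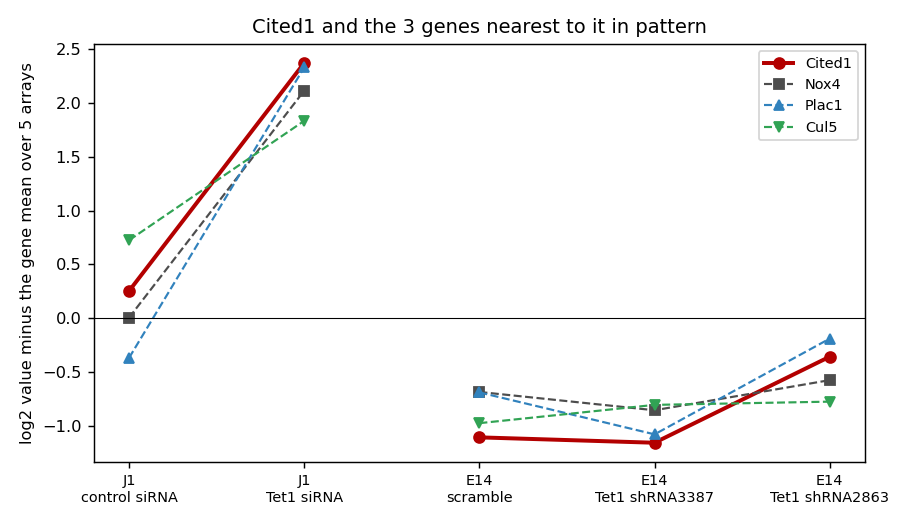
Log2 values of Cited1 and the 3 nearest genes on each array, minus each gene's own mean over the 5 arrays; lines join arrays of the same system. All 4 genes peak on the J1 Tet1 siRNA array, where Cited1 had a log2 value of 5.90 against 3.78 in its control.

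Most kept trophectoderm markers were also higher in J1 with Tet1 siRNA. Of 16 kept markers, 12 were higher and 4 lower with Tet1 siRNA, where 45.5% of all kept genes were higher. Among the higher, Cebpa (2.39 and 4.39 in J1) was kept only through the Tet1 siRNA array, which fixed its direction. Tpbpa counted as higher by 0.01, though its J1 values, 3.0 and 3.01, lay under the filter level. The median difference was 0.47 against -0.01 over all kept genes. This list was chosen with earlier results of these data known, so count and median are a description only. The 4 lower markers were Esrrb (-1.21), Tfap2a (-0.46), Bmp4 (-0.33) and Psg21 (-0.11). The mean log2 value of the 16 was 6.30 and 6.83 on the J1 arrays. On the E14 arrays it was 5.53, 5.46 and 5.72 with scramble, shRNA3387 and shRNA2863. Gata3 lay under the filter level at 2.17 to 2.30, while Gata2 differed by 0.81 in J1 and by -0.55 and -0.02 with the hairpins. The trophectoderm markers Cdx2, at 2.65 to 2.74, and Elf5, at 2.51 to 2.8, were too dim to be kept. Their J1 differences were 0.01 and 0.03, so the trend among kept markers does not include them. With shRNA3387, 3 of the markers were higher and 13 lower (median -0.11), where 57.0% of all kept genes were lower. With shRNA2863 8 were higher and 8 lower (median 0.03), where 55.1% of all kept genes were lower. The part of trophectoderm gene activity in the Cited1 result was not tested.

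The start regions of Cited1, Dab2 and Foxa2 are shown because Tet1 acts on CpG sites, and because these genes stand for a 2-fold J1 difference, a signal above the filter on every array and no signal above the filter. For each, the RefSeq start (GRCm38.p6) with the most CG among its listed starts was taken, the 250 bases before it are given 5′ to 3′ on the gene's strand, and capitals mark CG, searched as the letters CG, which read alike on both strands.
Cited1, chrX:102250777-102251026, minus strand: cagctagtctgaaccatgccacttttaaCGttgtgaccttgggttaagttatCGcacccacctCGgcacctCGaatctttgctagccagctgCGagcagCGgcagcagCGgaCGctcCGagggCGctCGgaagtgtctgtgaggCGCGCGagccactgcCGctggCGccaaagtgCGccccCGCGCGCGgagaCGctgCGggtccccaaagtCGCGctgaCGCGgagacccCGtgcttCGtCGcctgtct
Dab2, chr15:6386498-6386747, plus strand: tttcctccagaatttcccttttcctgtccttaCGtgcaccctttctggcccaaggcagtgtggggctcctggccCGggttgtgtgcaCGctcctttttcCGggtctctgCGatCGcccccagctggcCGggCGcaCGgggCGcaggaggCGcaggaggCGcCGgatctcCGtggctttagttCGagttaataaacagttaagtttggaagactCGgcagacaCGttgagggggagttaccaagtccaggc
Foxa2, chr2:148045949-148046198, minus strand: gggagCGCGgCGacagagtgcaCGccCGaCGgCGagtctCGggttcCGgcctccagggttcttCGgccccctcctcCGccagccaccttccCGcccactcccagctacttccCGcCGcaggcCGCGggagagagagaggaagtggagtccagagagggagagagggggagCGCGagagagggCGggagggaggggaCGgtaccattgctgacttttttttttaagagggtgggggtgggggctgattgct
The Cited1 window held 30 CG, and 5.94% of the 32851 windows of this length in the table held as many or more. The Dab2 window held 17 (23.5%) and the Foxa2 window 20 (17.9%), against a median of 6. These windows were picked for the most CG and the 32851 were not, so a high standing is partly set by that choice. Other starts of Cited1 held 13 and 9 CG, those of Foxa2 6 and 13, and the other Dab2 start 2. Windows of 6 of the 10 genes were used. Member starts on an excluded chromosome were left out, so a gene without a window here may still have a listed start. Cubn had 2 CG, Pdgfra 4, and the Hnf4a starts 3 and 4. The letters AGATAA, a form of the GATA factor motif, or their complement TTATCT occurred in 2 of the 12 windows, at a start of Foxa2 and a start of Hnf4a, and in 9.99% of all windows. The arrays say nothing of methylation or binding at these sequences.

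Few of the kept genes differed by 2-fold in any comparison. In J1, 6 of 7 were higher and 1 lower, with a median of 0.25, while 45.5% of all kept genes were higher. Of the 7, 1 differed by 2-fold, where 1.57% of kept genes did in either direction. With shRNA3387, 1 was higher and 6 lower (median -0.05), while 57.0% of all kept genes were lower, and 0 differed by 2-fold, where 1.81% of kept genes did. With shRNA2863, 3 were higher and 4 lower (median -0.03), while 55.1% of all kept genes were lower, and 0 differed by 2-fold, where 1.2% did; 2 of the 7, Sox7 and Cited1, differed by 1.5-fold, where 6.89% did. The hairpins share the scramble array, so their values are not independent. The background of the arrays moved in the same directions: over the 4574 genes not kept, the median was 0.02 higher on the J1 Tet1 siRNA array than on its control, and 0.05 and 0.03 lower on the shRNA3387 and shRNA2863 arrays than on scramble. Likewise 11 of the 13 probe sets that were always under the filter level were higher with Tet1 siRNA and 12 were lower with each hairpin, with differences of at most 0.14 in size. After centring each array on its median, 5 of the 7 genes were higher and 1 lower in J1, where 30.6% of all kept genes were then higher, and 4 were higher with shRNA3387, where 64.8% were.

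**Figure D3:**
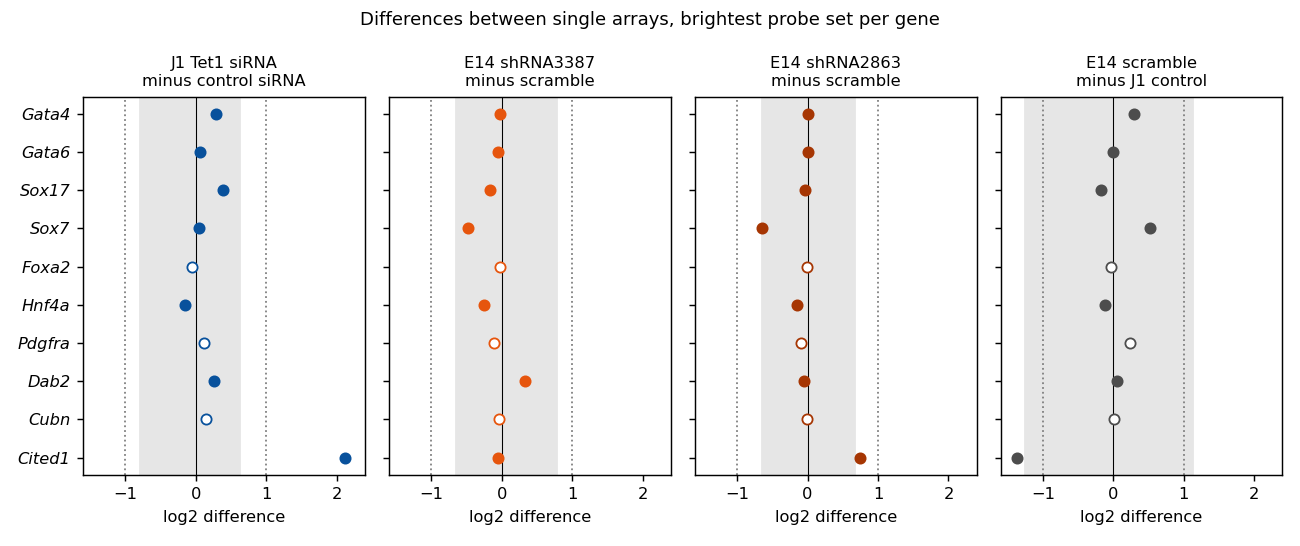
Log2 differences (horizontal axes) between single arrays for the brightest probe set of each gene; filled points are kept genes, open points lay under the filter level, dotted lines mark 2-fold, and grey bands hold the middle 95% of all kept genes. Cited1 lies outside the band in J1 (2.12), with shRNA2863 (0.75) and between the controls (-1.36), and the other 9 genes lie inside the band in every panel.

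Limma called 0 of 13619 genes for the Tet1 term over both systems (0.0%), with 936 at an unadjusted p under 0.05, and 0 for the E14 term, with 1499. The fit with no system term and the fit without a mean-variance trend also called 0 for the Tet1 term. No primitive endoderm gene had an unadjusted p under 0.05 for the Tet1 term; the lowest was that of Hnf4a, 0.0686.

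None of the 7 kept genes passed the test between the systems. The system term, E14 minus J1 with the Tet1 effect removed, was -2.37 ± 0.53 for Cited1 (SE; 3 E14 and 2 J1 arrays, limma adjusted p = 0.0671) and -0.45 ± 0.14 for Sox17 (SE; limma adjusted p = 0.118). Cited1 had an adjusted p of 0.0467 after quantile normalization and 0.0368 with the filter at the 60th percentile. Its system term was -1.36 without the J1 Tet1 siRNA array and -3.13 without the J1 control or scramble array. Since Cited1 was kept through the J1 arrays and shRNA2863, and its scramble and shRNA3387 values lay under the filter level, the size of this term is uncertain and it is given as a description. The term was 0.13 ± 0.09 for Gata4, -0.05 ± 0.05 for Gata6, 0.18 ± 0.17 for Sox7, -0.15 ± 0.07 for Hnf4a and -0.01 ± 0.16 for Dab2 (SE). Over all kept genes 14.2% were called, 1936 in all, so 0 of 7 here stands against a background of that size. Leaving out any array, with 1 residual degree of freedom left, gave 0 calls among all genes. Between the control arrays alone, 1 of 7 differed by 2-fold, Cited1 with -1.36 and a scramble value under the filter level, where 8.36% of kept genes did.

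FGF signalling, which favours the primitive endoderm, had genes that differed between the systems in both directions. Among 21 kept genes of FGF and PDGF signalling, 7 passed the system term, 3 higher and 4 lower in E14, where 14.2% of all kept genes passed. Lower in E14 were the FGF receptor Fgfr2 (-1.49 ± 0.22 SE, limma adjusted p = 0.0352), the adaptors Grb2 (-0.82 ± 0.11) and Shc1 (-1.39 ± 0.12), and the exchange factor Sos2 (-1.07 ± 0.11). The other receptors did not pass, with -0.55 ± 0.17 for Fgfr1, 0.27 ± 0.10 for Fgfr3 and 0.06 ± 0.09 for Fgfr4. Higher in E14 were the ERK feedback inhibitors Spry2 (0.83 ± 0.10) and Spry4 (1.27 ± 0.11) and the ERK-responsive factor Etv5 (1.15 ± 0.15). With any array left out, 0 genes were called for this term. Fgf4, the epiblast ligand, read 9.10 and 8.32 in J1 and 8.85, 9.15 and 8.86 in E14. For the Tet1 term 0 of the 21 passed. Sos2 differed by 0.85, 1.12 and 1.0, and Ptpn11 by 0.29, 0.76 and 0.79. Scramble was the lowest array for both, at 5.19 for Sos2 and 8.42 for Ptpn11, so their hairpin differences rest on that shared control array. Fgf5 differed by 0.03, 3.74 and -0.02. It was above the filter level only with shRNA3387 (6.65) and so was kept through that array. Its other values, 2.37 to 2.91, lay under the filter level, so these differences have no firm size.

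Of the genes that mark the later visceral and parietal endoderm, 25 of the 34 on the array were kept, and 0 passed the Tet1 term. In J1, 14 were higher and 10 lower, with a median of 0.01 and none at 2-fold. Follistatin, the activin-binding protein encoded by Fst, differed by 1.0 and 1.03 with the hairpins and by -0.33 in J1. The laminin chain Lama1 differed by -0.54, -0.67 and -1.17, and the basement membrane linker Nid1 by 0.22, -0.79 and -0.79. For the system term, 5 of the 25 passed, where 14.2% of all kept genes did, all of them lower in E14: the collagen IV chains Col4a1 (-1.85 ± 0.14 SE) and Col4a2 (-2.19 ± 0.20), Sparc (-1.86 ± 0.13), Krt19 (-2.02 ± 0.35) and Apoe (-0.63 ± 0.08), and again 0 with any array left out. Fibroblasts make several of these too. Of 25 kept fibroblast markers, 2 passed the system term, against the same 14.2%, Col1a2 (-2.47 ± 0.10) and Thbs1 (-1.57 ± 0.22), both lower in E14. The part of feeder RNA in the system term was not tested.

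The pluripotency factors listed as opposing the endoderm, a list name that need not hold for each of them, had negative differences in J1. All 12 read lower with Tet1 siRNA (median -0.74), where 50.4% of all kept genes were lower. This list was chosen with earlier results of these data known, so the count is a description only. Of the 12, 2 differed by 2-fold, Prdm14 (-1.18) and Esrrb (-1.21), where 1.57% of kept genes did in either direction. With shRNA3387, where 57.0% of all kept genes were lower, 11 of the 12 were (median -0.23), with Tbx3 at -1.40. With shRNA2863, where 55.1% of all kept genes were lower, 7 of the 12 were (median -0.05). None of these passed the Tet1 term. For the system term 3 of the 12 passed, against 14.2% of all kept genes: Klf4, Sox2 and Esrrb, each higher in E14. Of 5 kept definitive endoderm and mesendoderm genes, 2 were higher and 3 lower in J1, and Eomes, a factor of both mesendoderm and trophoblast, differed by -0.09, 0.71 and 0.67.

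Among 14 kept relatives of the GATA, SOX, FOXA, CITED and DAB families, 0 passed the Tet1 term. Sox3 differed by 0.13, 2.88 and 1.79, Sox15 by 0.62, -1.04 and -0.88, and Dab1 by -0.12, 1.44 and 0.88. Gata5 lay between 3.10 and 3.18. For the system term 1 of the 14 passed, where 14.2% of all kept genes did. It was Cited2, the close relative of Cited1, lower in E14 (-0.81 ± 0.11 SE, limma adjusted p = 0.0299). Cited1, with the same sign, did not pass, and neither did Cited4 (-0.12 ± 0.07 SE).

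**Figure D4:**
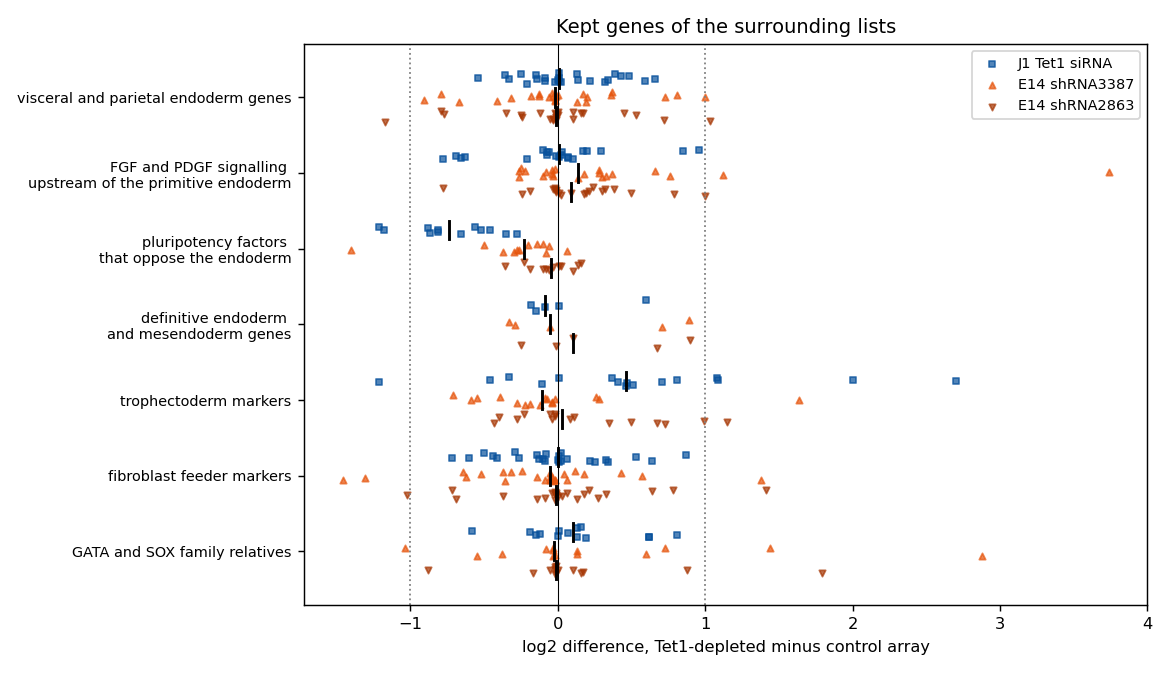
Log2 differences (horizontal axis) of Tet1-depleted minus control arrays for the kept genes of each list; each point is 1 gene in 1 depletion, black ticks are medians, and dotted lines mark 2-fold. Pluripotency factors lie to the left in J1 (median -0.74) and trophectoderm markers to the right (median 0.47), and the visceral and parietal endoderm medians lie within 0.02 of 0 in the 3 depletions. The lists were chosen with earlier results of these data known.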

How the data were processed

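RNA of 5 samples was labelled with biotin and hybridised to 1 Affymetrix array each, per the labels' protocols. The deposited values are log2 probe set summaries, a scale read from their range; how the authors corrected background, summarised and normalized them is not given in the sources used here. They were used as deposited. Gene symbols came from the platform's annotation table (34945 non-control probe sets with 1 symbol, 34741 matched by Entrez identifier to RefSeq, GRCm38.p6), and the probe set with the highest mean stood for its gene. Of 18193 genes, 13619 exceeded the 40th percentile on at least 1 array and were kept. limma 3.58.1 (R 4.3.3) was fitted to all kept genes with a mean-variance trend, two-sided, Benjamini-Hochberg adjusted, threshold 0.05: a system and a Tet1 term (2 residual degrees of freedom), and 4 group means (1 residual degree of freedom, from the hairpin arrays). The p-values measure the spread between these arrays, so reagents, lines and technical noise are mixed in them; the fits were tested on simulated data. Single-array differences have no test. The members and lists were chosen with earlier results of these data known. Named genes were the members, Tet1, list genes at 2-fold or with the largest mean difference, and the 3 genes nearest to a member with a range of at least 1. Genes named for the system term were chosen after their values were seen. So were the pathway partners Pdgfa, Pdgfc, Pdgfrb, Amn, Lrp2, Fgf4, Gata2, Gata3 and Gata5, and the trophectoderm markers Bmp4, Tfap2a, Psg21, Tpbpa, Cdx2 and Elf5. The alternatives were quantile normalization, median centring, the median over probe sets, other filters, no trend, no system term, a 1.5-fold size and leaving out each array.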

Additional observations from a re-analysis of the deposited data

Results flagged for a closer look

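Sox17 was higher in J1 with Tet1 siRNA (0.38) and lower with both hairpins (-0.16 and -0.03); the difference of effects, E14 minus J1, was -0.475 ± 0.13 (SE) with an adjusted p of 0.37 in limma. Sox7 differed by 0.04 in J1 and by -0.48 and -0.64 with the hairpins; the difference of effects was -0.60 ± 0.15 (SE) with an adjusted p of 0.361 in limma. Opposite signs drew attention to both, and the test of the difference called neither. These signs depended on the scaling. Sox17 with shRNA2863 differed by 0.01 after quantile normalization and 0.0 after median centring, and Sox7 in J1 by 0.0 after median centring.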

How the results depend on the processing

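No paired analysis was possible because each group holds 1 array and the labels number no replicates. The number of genes called for the Tet1 term, the E14 term and the difference of effects was 0 in every alternative run. For the system term it was 1936, between 1613 and 2597 under the other scalings, filters and trend setting, and from 0 to 0 when any array was left out. With a 1.5-fold size, 2 genes (Sox7 and Cited1) counted with shRNA2863, where 6.89% of kept genes did. The Cited1 difference in J1 kept its sign and 2-fold size under both scalings. Signs of members that were not called turned as follows. Without either J1 array the Tet1 term is the mean hairpin difference in E14. Without the scramble array it is the J1 difference, so these values restate differences given above. For the other turns the cause was not tested. The Tet1 term of Gata4, Gata6 and Sox17 was -0.005, -0.02 and -0.095 without either J1 array and reached 0.28, 0.06 and 0.38 without the scramble array; that of Sox7 ran from -0.56 to 0.04, and that of Dab2 -0.21 as the median over probe sets. The system term of Sox7 ran from -0.08 without the J1 control or scramble array to 0.52. That of Dab2 was 0.15 after quantile normalization, 0.23 as the median over probe sets, and from -0.10 to 0.09 with an array left out. The E14 effect was 0.051 for Gata4 and 0.04 for Gata6 after quantile normalization, 0.04 and 0.025 after centring, and -0.45 for Dab2 as the median over probe sets. The difference of effects was 0.01 (quantile) and 0.005 (centring) for Gata6, and 0.035 (centring) for Hnf4a. Signal near the filter level and the number of arrays limit the precision.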
